A study of Mus musculus with 6 samples.

Results

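The genes described here encode the 3 superoxide dismutases (Sod1, Sod2 and Sod3), catalase (Cat) and the 6 peroxiredoxins (Prdx1 to Prdx6). They were taken by symbol from the deposited table, and all 10 had a row among its 26231 genes. RNA was sequenced from immortalized mouse embryonic fibroblasts (MEFs), with 3 libraries labelled MEF WT and 3 labelled MEF Nf2 KO, called KO-labelled below. The cells came from FVB embryos of about 14 days according to the labels, and all carried Nf2 alleles flanked by loxP sites and the SV40 large T antigen. The MEF WT cells received a GFP lentivirus as vector control, and the MEF Nf2 KO cells a lentivirus with Cre recombinase and GFP behind the CMV promoter. Both lines were kept in medium without serum for 24 h before RNA was extracted. Each genotype was represented by 1 immortalized culture line, and nothing in the labels says that the replicates were separate derivations, so the p-values measure only the spread between these libraries. The comparison addresses which genes differ when Merlin, the protein of Nf2, is missing, with redox genes as the point of interest.

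Superoxide, the radical formed when oxygen takes up a single electron, is turned into hydrogen peroxide by the superoxide dismutases. Catalase splits hydrogen peroxide into water and oxygen, and the peroxiredoxins reduce it, and organic peroxides, through a reactive cysteine. The enzymes work in different places, and they are ordered here by compartment. Sod1, Prdx1, Prdx2 and Prdx6 work mainly in the cytosol, Sod2, Prdx3 and Prdx5 in mitochondria, Prdx4 in the endoplasmic reticulum (ER), Cat in peroxisomes and Sod3 outside the cell. Part of Sod1 also lies between the mitochondrial membranes, and Prdx5 is found in peroxisomes and the cytosol as well. Several of these genes are known targets of NRF2, the transcription factor that binds the antioxidant response element.

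The core of that element, written TGACNNNGC, was searched on both strands of RefSeq promoter windows (GRCm38.p6) that run from 250 bases before to 50 bases after a gene start. Windows were at hand for 8 of the 10 genes, all except Sod3 and Prdx6. The core occurred in 2 of the 8, those of Prdx1 and Sod1, and in 12.4% of all 32851 windows. The stretches around it are shown for these genes, the most abundant peroxiredoxin and the most abundant superoxide dismutase. Both lie on the plus strand, at chr4:116685426-116685514 for Prdx1 and chr16:90220666-90220753 for Sod1, with the core in capitals as its reverse complement.
Prdx1: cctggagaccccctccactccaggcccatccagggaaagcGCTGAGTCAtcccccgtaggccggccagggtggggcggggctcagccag
Sod1: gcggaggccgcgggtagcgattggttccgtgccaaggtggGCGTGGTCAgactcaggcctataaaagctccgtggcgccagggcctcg
The core began 133 bases before the gene start in Prdx1 and 56 bases before it in Sod1, counted from the RefSeq start, which differs from the GENCODE start given further on. A match of these letters is a description of the window and was not tested for binding.

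Values are RPKM, which relate the reads of a gene to its length and to the size of the library, a unit worked out from the values. The depth, also inferred from the values, was 13455000 to 73045000 reads per library, and replicate 3 of each line was the deepest. The column headers of replicate 3 carry a year in place of the letter of replicates 1 and 2. What this stands for is not given in the sources used here. Nf2 itself was 14.3, 13.7 and 13.1 RPKM in MEF WT replicates 1, 2 and 3, and 15.4, 12.9 and 13.9 RPKM in the KO-labelled libraries. Its RNA was thus not lower under the knockout label (log2 fold change 0.033, limma adjusted p = 0.987), and every direction below follows the labels. The value covers the whole gene, and which exons lie between the loxP sites is not given in the sources used here. Of the 9 fibroblast markers 8 had at least 1 RPKM in every library, and Vim reached 882 RPKM, but their sum was 2465 to 3268 RPKM in MEF WT and 1700 to 2241 RPKM in the KO-labelled libraries. The macrophage, erythroid, epithelial, endothelial and skeletal muscle lists, with 24 of their 26 markers in the table, summed to at most 8.54, 2.0, 0.874, 4.45 and 0.545 RPKM in any library, and Ptprc, Hbb-bt, Cdh1 and Pecam1 were under 0.1 RPKM in all 6. In the macrophage and endothelial lists 1 marker each had at least 1 RPKM in every library, and the highest values were 8.10 RPKM for Cd68 and 4.39 RPKM for Kdr. In such bulk libraries, fewer cells with an RNA and less of it per cell cannot be told apart.

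All 10 genes had at least 1 RPKM in at least 3 libraries, the filter that left 11067 genes for the test with limma on log2(RPKM + 1). Sod3 met it through MEF WT, because of the KO-labelled libraries only replicate 1 reached 1 RPKM. For Sod3 the filter was therefore not neutral to the direction of the difference. Between the lines 0 of the 10 passed an adjusted p of 0.05, where 1.06% of all genes tested did (0.578% lower and 0.479% higher), and 2 of the 10 (Prdx6 and Sod3) had an unadjusted p under 0.05, where 9.91% of all genes did. Libraries of the same replicate number deviated together, so the number was also used as a block. With this block Prdx6 was higher and Sod3 lower in the KO-labelled libraries, 2 of the 10 genes, against 7.53% of all genes tested, 2.99% higher and 4.54% lower. The median log2 fold change of the 10 genes was 0.034, beside -0.0078 over all genes tested. In 3 of the 10 (Sod2, Prdx4 and Sod3) every KO-labelled library lay below every MEF WT library, and in 0 of them above, while the lines did not overlap in 15.1% of all genes tested, in 7.52% with the KO-labelled libraries lower and in 7.6% with them higher.

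**Figure D1:**
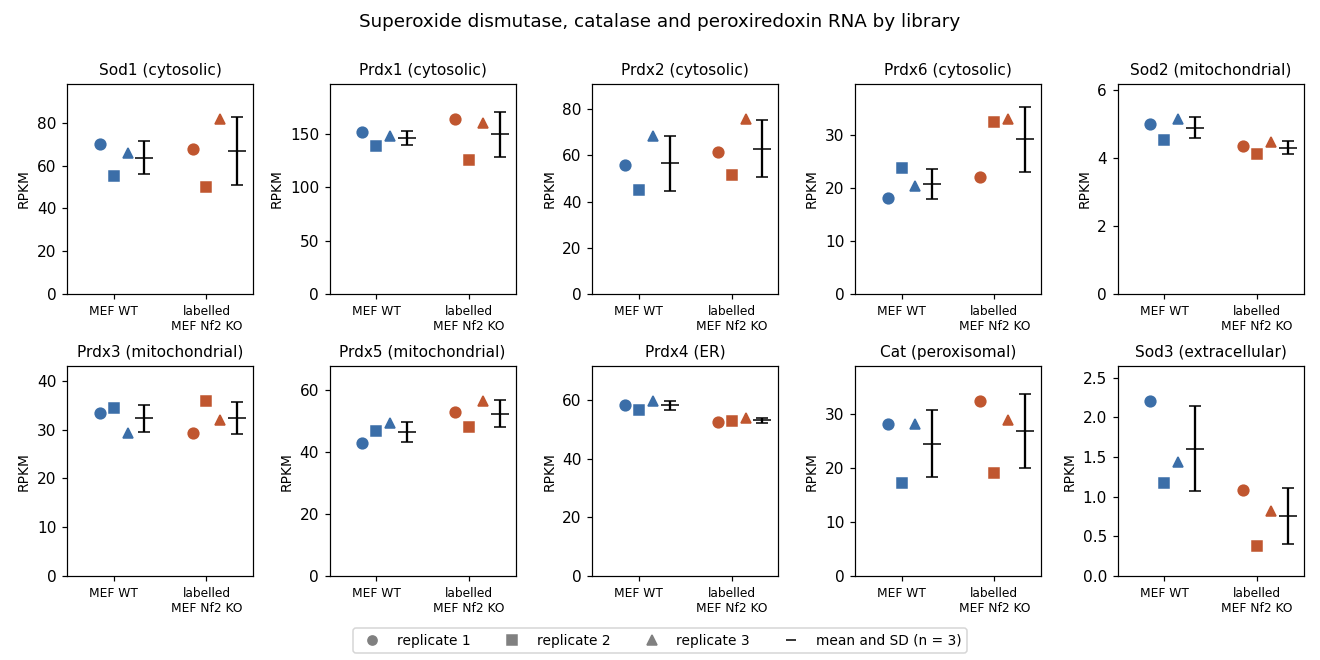
RPKM (vertical axis, from 0, a separate scale for each gene) of the 10 genes in the 3 MEF WT and the 3 libraries labelled MEF Nf2 KO, with a symbol for each replicate number and bars for the mean and SD. The lines are apart in the panels of Sod2, Prdx4 and Sod3, and Cat is lowest in replicate 2 of both lines, at 17.3 and 19.2 RPKM.

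In the cytosol, Prdx1 was the most abundant of the 10 genes. Prdx1, which passes the oxidation of its cysteine on to thioredoxin, was 152, 139 and 149 RPKM in MEF WT replicates 1, 2 and 3, and 164, 126 and 160 RPKM in the KO-labelled libraries. The lines overlapped, and both the highest and the lowest value came from the KO-labelled libraries. The log2 fold change was 0.026 with a 95% confidence interval of -0.28 to 0.33 (limma adjusted p = 0.996). Sod1, the copper and zinc enzyme, was 70.4, 55.3 and 65.7 RPKM in MEF WT and 68.1, 50.2 and 81.9 RPKM in the KO-labelled libraries. The ranges overlapped, with replicate 2 the lowest in either line. Its log2 fold change was 0.043 (95% confidence interval -0.42 to 0.50, limma adjusted p = 0.994), and with the replicate block the interval was -0.21 to 0.30. Prdx2, a close relative of Prdx1 and abundant in red blood cells, was 55.8, 45.2 and 68.6 RPKM in MEF WT and 61.6, 51.3 and 75.8 RPKM in the KO-labelled libraries. At every replicate number Prdx2 was higher in the KO-labelled library than in the MEF WT library, by 0.14, 0.18 and 0.14 on the log2 scale, but the ranges overlapped (log2 fold change 0.15, limma adjusted p = 0.948, 0.230 with the replicate block).

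Prdx6 stood apart from these 3. It is the peroxiredoxin with a single catalytic cysteine, it draws on glutathione rather than thioredoxin, and it also acts as a phospholipase. It was 18.1, 23.8 and 20.4 RPKM in MEF WT replicates 1, 2 and 3, and 22.1, 32.5 and 33.1 RPKM in the KO-labelled libraries. Replicates 2 and 3 under the knockout label lay above all other libraries, while replicate 1 lay within the MEF WT range, so the lines overlapped. The means were 20.8 ± 2.87 and 29.2 ± 6.17 RPKM (SD, n = 3 each). On the log2 scale Prdx6 rose by 0.46 when the replicate number was a block (SE 0.091, limma adjusted p = 0.0415), and without it the limma adjusted p was 0.461. The pairs differed by 0.27, 0.43 and 0.67 on the log2 scale, all in the same direction. With the block and only 2 pairs, chosen after seeing the data, the adjusted p was 0.0542 to 0.135 from limma, depending on the pair left out.

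**Figure D2:**
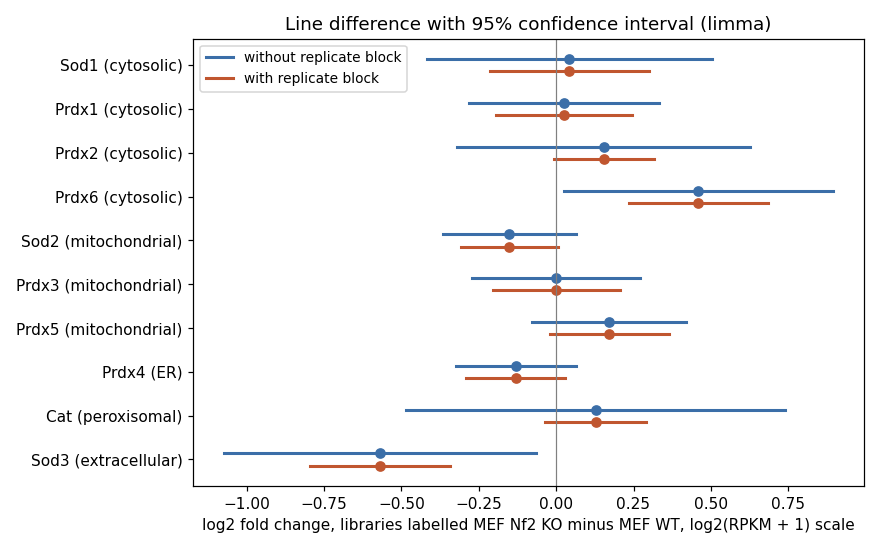
Log2 fold change (horizontal axis, log2(RPKM + 1) scale) of the 10 genes between the KO-labelled libraries and MEF WT, with 95% confidence intervals from limma without and with the replicate block, not adjusted for the number of genes. With the block the interval of Prdx6 runs from 0.23 to 0.68 and that of Sod3 from -0.80 to -0.34, and the other 8 include 0.

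In mitochondria, Sod2 was slightly lower and Prdx5 slightly higher under the knockout label, neither past the threshold. Sod2, the manganese enzyme of the matrix, was 5.0, 4.55 and 5.15 RPKM in MEF WT and 4.35, 4.11 and 4.48 RPKM in the KO-labelled libraries. The lines did not overlap, with a gap between 4.48 and 4.55 RPKM. The mean ratio was 0.880 and the log2 fold change -0.15 (95% confidence interval -0.36 to 0.06, limma adjusted p = 0.733, 0.229 with the replicate block). Prdx5, which forms its disulfide within a single chain, was 42.8, 46.8 and 49.3 RPKM in MEF WT and 52.7, 47.9 and 56.3 RPKM in the KO-labelled libraries. The ranges overlapped through replicate 2, where the pair differed by 0.03 on the log2 scale against 0.29 and 0.19 in replicates 1 and 3. Its log2 fold change was 0.17 (limma adjusted p = 0.743, 0.257 with the replicate block). Prdx3, the thioredoxin-dependent peroxidase of the matrix, was 33.3, 34.4 and 29.2 RPKM in MEF WT and 29.2, 35.8 and 32.0 RPKM in the KO-labelled libraries. Its line means were 32.3 ± 2.71 and 32.4 ± 3.33 RPKM (SD, n = 3 each), and the interval of the log2 fold change was -0.27 to 0.27.

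In the ER, Prdx4 was the steadiest of the 10 genes within each line, by SD relative to the mean. Prdx4 uses the hydrogen peroxide made during protein folding, and part of it is secreted. It was 58.2, 56.4 and 59.5 RPKM in MEF WT and 52.3, 52.6 and 53.9 RPKM in the KO-labelled libraries. The lines did not overlap, and the knockout label was lower in every pair, by 0.15, 0.10 and 0.14 on the log2 scale. The mean ratio was 0.912 and the log2 fold change -0.13 (95% confidence interval -0.32 to 0.06, limma adjusted p = 0.757, 0.296 with the replicate block). In peroxisomes, Cat was 28.1, 17.3 and 28.1 RPKM in MEF WT and 32.4, 19.2 and 29.0 RPKM in the KO-labelled libraries. Replicate 2 was the lowest of either line, and the lines overlapped. Cat was higher under the knockout label in every pair, by 0.20, 0.14 and 0.04 on the log2 scale, with a log2 fold change of 0.13 (limma adjusted p = 0.981, 0.314 with the replicate block).

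Outside the cell, Sod3 was the least abundant of the 10 genes and the one with the largest difference between the lines. Sod3 is the secreted copper and zinc enzyme, which binds heparan sulfate at cell surfaces and in the matrix. It was 2.21, 1.17 and 1.44 RPKM in MEF WT replicates 1, 2 and 3, and 1.08, 0.374 and 0.816 RPKM in the KO-labelled libraries. The lines did not overlap, and replicate 2 was the lowest of either line. The means were 1.60 ± 0.537 and 0.757 ± 0.356 RPKM (SD, n = 3 each), a ratio of 0.472. On the log2 scale Sod3 fell by 0.57 when the replicate number was a block (SE 0.091, limma adjusted p = 0.0240), and without it the limma adjusted p was 0.408. Sod3 entered the test through its MEF WT values, as only replicate 1 under the knockout label reached 1 RPKM. No fit with the block was made without this filter. The pairs differed by -0.62, -0.66 and -0.42 on the log2(RPKM + 1) scale, on which changes of so low a gene look too small, and with 0.1 added in place of 1 the log2 fold change was -1.04. The values rest on about 111, 83 and 329 reads in MEF WT and about 73, 27 and 223 reads in the KO-labelled libraries, against 663 or more for each of the other 9 genes. With the block and only 2 pairs, chosen after seeing the data, the adjusted p was 0.0480 to 0.0982 from limma, and it stayed under 0.05 only without replicate 3. The summed fibroblast markers were lower in the same libraries, and their part in the difference of Sod3 was not tested.

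**Figure D3:**
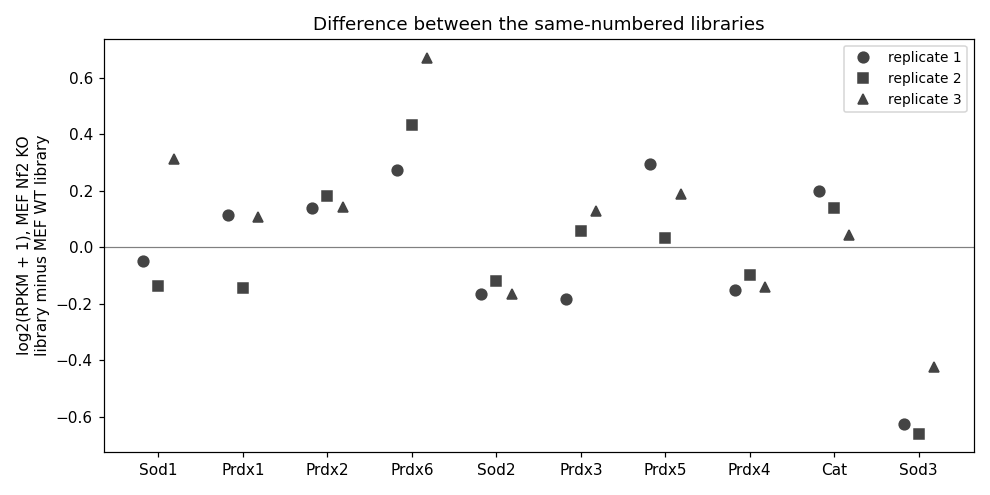
Difference in log2(RPKM + 1) between the KO-labelled library and the MEF WT library of the same replicate number (vertical axis) for the 10 genes, with a symbol for each replicate number. All 3 differences are above 0 for Prdx2, Prdx6, Prdx5 and Cat and below 0 for Sod2, Prdx4 and Sod3, and those of Sod1, Prdx1 and Prdx3 lie on both sides.

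In 7 of the 10 genes the 3 pairs differed in the same direction, as they did in 46.9% of all genes tested, 24.6% lower and 22.3% higher. Within the lines, replicate 2 often stood apart. In 9 of the 10 genes replicate 2 lay on the same side of the mean of replicates 1 and 3 in both lines, against 82.0% of all genes tested. For Cat it differed from that mean by -0.67 in MEF WT and -0.65 in the KO-labelled libraries, on the log2 scale. Prdx2 (-0.45 and -0.41), Sod1 (-0.29 and -0.56), Sod3 (-0.36 and -0.50) and Prdx1 (-0.11 and -0.37) were also lower in replicate 2 of both lines. Prdx6 (0.30 and 0.26) and Prdx3 (0.13 and 0.22) were higher there. In 5 of the 10 genes (Sod1, Prdx1, Prdx2, Prdx3 and Cat) this offset, averaged over the lines, was larger than the difference between the lines, against 67.7% of all genes tested.

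RPKM is scaled to length, so the levels can be set against each other, with the limit that the exon models used for the table are not given in the sources used here. By the mean over the lines, Prdx1 came first, followed by Sod1, Prdx2, Prdx4, Prdx5, Prdx3, Cat, Prdx6, Sod2 and Sod3. Prdx1 lay above every other gene in every library. The ranges of Sod1, Prdx2, Prdx4 and Prdx5 overlapped with each other, as did those of Prdx3, Cat and Prdx6, and neighbours in the order changed places between libraries within these sets. Sod1 was above Prdx5 in all 6 libraries. Sod2 and Sod3 were under every other gene in all 6 libraries. The 10 genes summed to 466, 424 and 476 RPKM in MEF WT and to 488, 420 and 527 RPKM in the KO-labelled libraries, and the sums overlapped. Cytosolic enzymes made up 61.9% to 66.5% of the sum, mitochondrial ones 17.4% to 20.9%, Prdx4 10.2% to 13.3%, Cat 4.09% to 6.64% and Sod3 0.0892% to 0.474%. Sod1 accounted for 90.6% to 93.9% of the superoxide dismutase sum and Prdx1 for 36.3% to 43.0% of the peroxiredoxin sum.

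**Figure D4:**
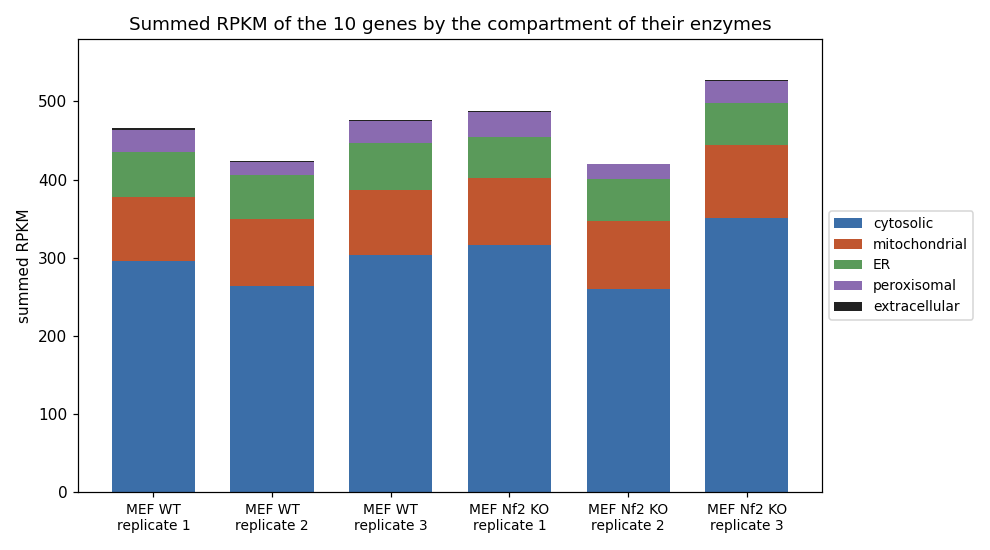
Summed RPKM (vertical axis, from 0) of the 10 genes in each of the 6 libraries, stacked by the main compartment of their enzymes. Replicate 2 has the lowest total in either line, at 424 and 420 RPKM, and the extracellular part, Sod3 alone, is hardly visible at 0.374 to 2.21 RPKM.

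Some of these genes share sequence or ground with others, as judged in GENCODE vM21 (GRCm38). Prdx5 (chromosome 19, 6906697 to 6910106, minus strand) overlaps Trmt112 on the plus strand, and 16.9% of all runs of 31 bases in its transcripts are found in that gene too, which had 39.2 to 46.8 RPKM. For Sod2 (chromosome 17, 13006846 to 13040063) the shared part was 26.7%, and for Prdx2 (chromosome 8, 84969587 to 84974834), which overlaps Junb and Rnaseh2a, 16.5%. For Prdx1 (chromosome 4, 116685544 to 116700822) it was 15.4%, and for Sod1 (chromosome 16, 90220754 to 90226329), which overlaps Scaf4, 5.42%. The gene that shared most with them was low for 4 of the 5, at most 0.0229 RPKM for Prdx1 (Gm21399), 0.147 for Sod1 (Gm8566), 1.12 for Prdx2 (Tdpx-ps1) and 1.08 for Sod2 (AC166110.4). The genes that overlap Prdx2 were higher, Junb at 20.01 to 56.2 RPKM and Rnaseh2a at 8.21 to 11.1 RPKM, and Scaf4, which overlaps Sod1, had 10.2 to 11.6 RPKM. How the reads of shared stretches were counted, and whether strand was used, is not stated, so the values of these 5 genes are uncertain by an amount that was not measured. For Prdx6 (chromosome 1, 161240112 to 161251219) 2.42% and for Sod3 (chromosome 5, 52363791 to 52371418) 0.485% were shared. For Cat (chromosome 2, 103453849 to 103485160), Prdx3 (chromosome 19, 60864051 to 60874556) and Prdx4 (chromosome X, 155323918 to 155340754) it was 0%.

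The genes whose profile over the 6 libraries was most like that of the pair called with the block were found by the root-mean-square difference of centred log2(RPKM + 1) values. For Sod3 they were Mid1ip1 (0.071), Bnc2 (0.12) and Fgfr1 (0.12), with log2 fold changes of -0.50, -0.56 and -0.53, a direction that the choice by profile fixes. For Prdx6 they were Ctnnd2 (0.058), Fblim1 (0.068) and Sinhcaf (0.069), with log2 fold changes of 0.40, 0.40 and 0.48. The profiles of Sod3 and Prdx6 themselves had SDs of 0.37 and 0.31, and the neighbours were chosen as the closest of all genes tested. Without the block none of these 6 genes passed the threshold (limma adjusted p 0.178 to 0.688), and with it the neighbours of Sod3 passed and those of Prdx6 did not. Because the neighbours were chosen by profile in the same libraries, their calls add nothing to those of Sod3 and Prdx6.

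The partners of these enzymes were read in 7 lists of 104 genes in all, 99 of them in the table and 74 tested. Without the block 0 of the 74 passed the threshold (4 at an unadjusted p under 0.05 from limma), against 1.06% of all genes tested, and with the block 4 passed, against 7.53%. The median log2 fold change over the 74 was -0.024. Thioredoxin and thioredoxin reductases, which recycle the peroxiredoxins, sulfiredoxin and the sestrins, which repair or protect them, and the glutaredoxins formed a list of 15 tested genes. None of these 15 passed with or without the block (by limma without it, 0 at an unadjusted p under 0.05). Of the 15, 11 had a log2 fold change below 0, where 5763 of all 11067 genes tested did, and the median was -0.13. Of 7 tested genes for other peroxide-removing enzymes, glutathione peroxidases among them, 0 passed in either fit (1 at an unadjusted p under 0.05 from limma), with a median of 0.0036. The ER list, with the oxidases and disulfide isomerases that supply or use peroxide beside Prdx4, had 13 tested genes, 0 calls in either fit (1 at an unadjusted p under 0.05 from limma) and a median of 0.0043. The peroxisome list, with import factors for Cat and oxidases that make its substrate, had 10 tested genes, 0 calls in either fit (0 at an unadjusted p under 0.05 from limma) and a median of 0.037. In the lists of other peroxide-removing enzymes, the ER and the peroxisome, 3 of 7, 5 of 13 and 4 of 10 tested genes lay below 0.

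The list for metal supply to the superoxide dismutases held Mt2 and Mt1, the genes of the 7 lists furthest from 0. Of its 12 tested genes 10 had a log2 fold change below 0, where 5763 of all 11067 genes tested did, and the median was -0.12. Mt1 and Mt2 fell with the replicate block, against 4.54% of all genes tested called lower. With the block and only 2 pairs, chosen after seeing the data, both passed without replicate 2 and neither without replicate 1 or 3. The other 10 genes lay between -0.25 and 0.11. These metallothioneins bind zinc and copper and are induced by metals, glucocorticoids and oxidative stress. Mt2 was 55.0, 18.7 and 48.0 RPKM in MEF WT and 9.50, 7.49 and 4.44 RPKM in the KO-labelled libraries. The lines did not overlap. Its log2 fold change was -2.27 (SE 0.43, limma adjusted p = 0.0839, 0.0246 with the replicate block). Mt1 was 99.4, 31.4 and 85.2 RPKM in MEF WT and 48.6, 21.7 and 30.6 RPKM in the KO-labelled libraries. The ranges overlapped because MEF WT replicate 2 was low, and the log2 fold change was -0.99 (limma adjusted p = 0.603, 0.0344 with the replicate block). The chaperone that loads copper into Sod1, Ccs, did not pass, with a log2 fold change of 0.089 (limma adjusted p = 0.941).

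Of the 15 tested transcription regulators, Nfkb1 and Mafk rose with the replicate block, against 2.99% of all genes tested called higher, and the median of the list was -0.013. With the block and only 2 pairs, chosen after seeing the data, neither passed whichever pair was left out. Nfkb1, a subunit of NF-kappaB, of which Sod2 is a known target, was 8.30, 6.96 and 8.77 RPKM in MEF WT and 11.5, 10.4 and 11.9 RPKM in the KO-labelled libraries. The lines did not overlap (log2 fold change 0.45, limma adjusted p = 0.171, 0.0162 with the replicate block). Mafk, a small partner protein of NRF2, was 6.61, 16.2 and 7.49 RPKM in MEF WT and 8.76, 22.5 and 11.2 RPKM in the KO-labelled libraries. Its ranges overlapped, with replicate 2 the highest in either line (log2 fold change 0.45, limma adjusted p = 0.902, 0.0187 with the replicate block). Nfe2l2, the gene of NRF2, had a log2 fold change of -0.29 (limma adjusted p = 0.712, 0.136 with the block) and Keap1, its inhibitor, -0.013 (limma adjusted p = 0.997, 0.927 with the block).

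The NADPH oxidase subunits, which make superoxide or hydrogen peroxide, were mostly under the filter. Of 14 with a row 2 were tested, Cyba and Rac1, and 0 of them passed in either fit (by limma, 0 at an unadjusted p under 0.05). Duox1, Nox4 and Duox2, named here after their values were seen, stayed low in all 6 libraries and were not tested. Duox1 had 0.430 to 1.24 RPKM, Nox4 0.0560 to 0.270 RPKM and Duox2 0.0081 to 0.0432 RPKM.

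**Figure D5:**
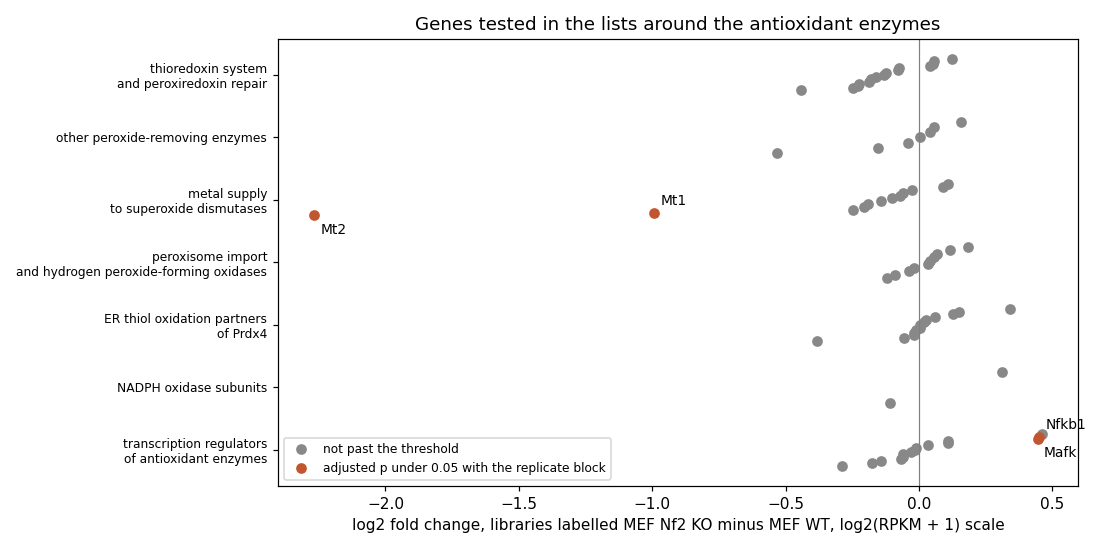
Log2 fold change (horizontal axis, log2(RPKM + 1) scale) of the tested genes in the 7 partner lists, 1 point per gene, with genes past the threshold in the fit with the replicate block coloured and named. Mt2 and Mt1 lie at -2.27 and -0.99, Nfkb1 and Mafk at 0.45, and the 70 genes that did not pass lie between -0.53 (Gpx3) and 0.46 (Maff).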

How the data were processed

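The authors had libraries and sequencing done by GENEWIZ and deposited 1 table of 1 value per gene and library. Aligner and counter are not given in the sources used here, and the submitters' processing notes name mm10. The deposited values were taken as RPKM, because values of up to 20 reads, multiplied by exon length in GENCODE vM21, were whole multiples of 1 step per library in 83.5% to 85.5% of cases (tolerance 0.05 reads, 10% by chance). The unit and the depth of 13455000 to 73045000 reads per library are therefore inferences.

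Values were put on the log2(RPKM + 1) scale, the study's own. The filter kept 11067 genes that reached 1 RPKM in 3 or more of the 6 libraries. They were tested two-sided with limma 3.58.1 in R 4.3.3 (trend, robust), adjusted after Benjamini and Hochberg at a threshold of 0.05, without covariates because the study's test was unpaired. The fit was checked on simulated data with replicate shifts built in and changes larger than those of the 10 genes. The check does not cover changes of their size. Across genes, the deviations of 2 libraries with 1 replicate number from their group means had correlations of 0.552, 0.819 and 0.516. The deviations within a line cancel out, so an offset of replicate 2 shared by both lines also raises the correlations of replicates 1 and 3. The correlations alone therefore cannot show that replicates 1 and 3 are paired. The numbers were still used as pairs, and values with them as a block stand where they change a call. Other settings were another pseudocount, other filters, other scalings, a plainer variance model and left-out libraries. Named by rule are the 10 genes, Nf2, partner genes past the threshold in either fit (up to 4 per list) and the 3 profiles most like that of each called gene. Ccs, Nfe2l2, Keap1, Cyba, Rac1, Duox1, Nox4, Duox2, Maff, Gpx3, the markers and the genes that share sequence or ground were named outside the rule. Members and lists were chosen with earlier results of these data known.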

Additional observations from a re-analysis of the deposited data

How the results depend on the processing

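Of the 10 genes 0 passed without the block with 0.1 as pseudocount, with the filter dropped or raised to 5 RPKM (which removes Sod2 and Sod3), after quantile normalization or median centring and in limma without trend and robust settings (1 to 2 at an unadjusted p under 0.05), and 2 passed with the replicate block. Partner list genes past the threshold rose from 0 to 4 with the block, and all genes from 117 to 833. The latter number was 9 with no filter, where more genes enter both the fit and the adjustment. With a filter of 5 RPKM, where fewer are tested, it was 63. In both settings the reason for the drop was not tested. The number was 121 to 131 with the other pseudocount, the other scalings and the plainer variance model.

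Without a replicate number or a library, 0 of the 10 genes passed each time (0 to 2 at an unadjusted p under 0.05 from limma), 0 to 3 partner genes (3 without replicate 2: Mt1, Mt2 and Maff; 1, Mt2, without MEF WT replicate 2) and 0 to 484 of all genes. The number of all genes was 0 without replicate 1 or 3 (578 and 556 at an unadjusted p under 0.05 from limma), 484 without replicate 2, 11 and 10 without MEF WT replicate 1 or 3, and 10 and 18 without MEF Nf2 KO replicate 1 or 3. With the block and 2 pairs, chosen after seeing the data, it was 320, 454 and 419 without replicate 1, 2 and 3, with 0 to 1 of the 10 genes (Sod3, without replicate 3) and 0 to 3 partner genes (Maff, Mt1 and Mt2 without replicate 2, none otherwise). The log2 fold change of 4 uncalled genes changed sign in such fits, ranging from -0.12 to 0.23 for Sod1, -0.045 to 0.15 for Prdx1, -0.073 to 0.093 for Prdx3 and -0.095 to 0.34 for Cat without the block. With the block it was -0.092 for Sod1 without replicate 3, -0.019 and -0.015 for Prdx1 without replicate 1 and 3, and -0.028 and -0.062 for Prdx3 without replicate 2 and 3. For Prdx2, also uncalled, it ran from 0.0058 without MEF WT replicate 2 to 0.30 without MEF WT replicate 3, and for Prdx5 from 0.11 to 0.24, without a change of sign. For Prdx6 it was 0.35 to 0.64 and for Sod3 -0.70 to -0.40 without the block. Apart from Prdx6 and Sod3, the replicate block changed no call among the 10 genes.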
